A study of Homo sapiens with 9 samples.

Results

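The genes described here encode the subunits of the respiratory chain and of ATP synthase, in MEC1, a human B cell line derived from chronic lymphocytic leukemia (CLL). They were chosen by gene symbol, as the subunit names of complexes I to V in the nuclear genome and the protein-coding genes of the mitochondrial genome. This gave 89 of the 59050 gene symbols in the count table, 76 nuclear-encoded and 13 mitochondrial-encoded. The nuclear-encoded genes were 37 of complex I, 4 of complex II, 9 of complex III, 10 of complex IV and 16 of complex V. The mitochondrial-encoded genes were 7 of complex I, 1 of complex III, 3 of complex IV and 2 of complex V. RNA was sequenced from MEC1 cells in conventional culture (2D) and from MEC1 cells printed in an alginate and cellulose bioink and harvested at day 7 (3D_7d) or day 14 (3D_14d), with 3 samples in each group. All 9 samples are 1 cell line, and the labels name no drug and no allele that differs between groups. Every sample title carries the tag PGK, whose meaning the sources used here do not give. RNA of the printed cells went through TRIzol, DNase I and then a column. RNA of the 2D cells went through the column without TRIzol, with washes that included DNase. Printing and extraction therefore cannot be told apart in a comparison with 2D. The labels give no harvest day for the 2D samples, so time in culture cannot be told apart from printing either. The labels number the replicates without saying whether they were separate cultures, and p-values therefore measure the spread between these samples, which may be technical.

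The respiratory chain sits in the inner mitochondrial membrane. Complexes I and II take electrons from NADH and from succinate, complex III passes them to cytochrome c, and complex IV hands them to oxygen. Complexes I, III and IV pump protons, and complex V uses the proton gradient to make ATP. Most subunits are made from nuclear genes and imported, whereas a small set of hydrophobic core subunits of complexes I, III, IV and V is encoded in the circular mitochondrial DNA. This DNA is transcribed as long precursors that are then cut into messenger RNAs. Complex II is encoded by the nucleus alone. A working complex therefore needs products of both genomes.

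Each sample had between 54662799 and 85968686 counts. Values are given as CPM (read counts relative to the library total, after scaling by TMM factors), or as RPKM, the CPM per 1000 exonic bases, wherever levels of different genes are compared. Libraries differed in how expression followed exon length. The slope was 0.0924, 0.0837 and 0.0628 in the 3D_7d samples, on a scale of log2 CPM per doubling of exon length, between -0.0575 and 0.0076 in 2D, and -0.1785, 0.0002 and 0.0036 in the 3D_14d samples, with 3D_14d replicate 1 farthest from the rest. This bears on the genes described here because they are short, with a median exon length of 1587 bases for the nuclear-encoded and 784 for the mitochondrial-encoded genes, against 3441 for all genes tested. All 6 B cell markers on the list were expressed and their summed level was 2518 to 2538 CPM in 2D, 2775 to 3488 in 3D_7d and 3439 to 3794 in 3D_14d. They differed in direction. In 3D_7d vs 2D, 1 was up-regulated (MS4A1) and 1 down-regulated (CD22), beside 22.2% and 21.2% of all genes. In 3D_14d vs 2D, 2 were up-regulated and 1 down-regulated (CD22), beside 19.0% and 17.2% of all genes. None of 4 monocyte markers passed the filter on low values. Of 5 T cell markers only TRAC did, at 311 to 717 CPM over the 9 samples, while CD3D, CD3E, CD3G and CD2 stayed at or under 1.004 CPM. The summed T cell list, at 312 to 357, 460.4 to 488.5 and 528 to 718 CPM in 2D, 3D_7d and 3D_14d, was made up almost wholly of TRAC. The summed fibroblast list was highest in 2D, at 6.81 to 7.48 CPM, against 1.73 to 4.64 in 3D_7d and 1.58 to 4.89 in 3D_14d. The erythroid list was lowest in 2D, at 0.0648 to 0.0990 CPM, against 1.80 to 2.39 in 3D_7d and 2.93 to 5.54 in 3D_14d. The part of these lists in the results was not tested. In RNA from whole cultures, fewer cells of a kind and less RNA per cell cannot be told apart.

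The balance of the 2 genomes differed between 2D and both printed groups. The summed level of the 13 mitochondrial-encoded genes was 12549, 14896 and 13870 RPKM in the 2D samples, 7346, 8739 and 7944 in 3D_7d and 9472, 6762 and 10813 in 3D_14d. Every printed sample lay under every 2D sample. The summed level of the 76 nuclear-encoded genes was 11290, 9779 and 9027 RPKM in 2D, 10192, 11358 and 11931 in 3D_7d and 18673, 10239 and 13175 in 3D_14d, and these ranges overlapped between 2D and both printed groups. The ratio of mitochondrial to nuclear RPKM was 1.39 ± 0.241 (SD, n = 3) in 2D, 0.719 ± 0.0518 in 3D_7d and 0.663 ± 0.157 in 3D_14d. Of all counts in a library, the 13 genes took 1.21% to 1.46% in 2D, 0.710% to 0.832% in 3D_7d and 0.592% to 0.980% in 3D_14d. The 2 mitochondrial ribosomal RNAs, transcribed from the same DNA, took 1.28% ± 0.166, 0.811% ± 0.111 and 1.47% ± 0.408 of the counts, so that they were lowest in 3D_7d and overlapped 2D in 3D_14d.

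**Figure D1:**
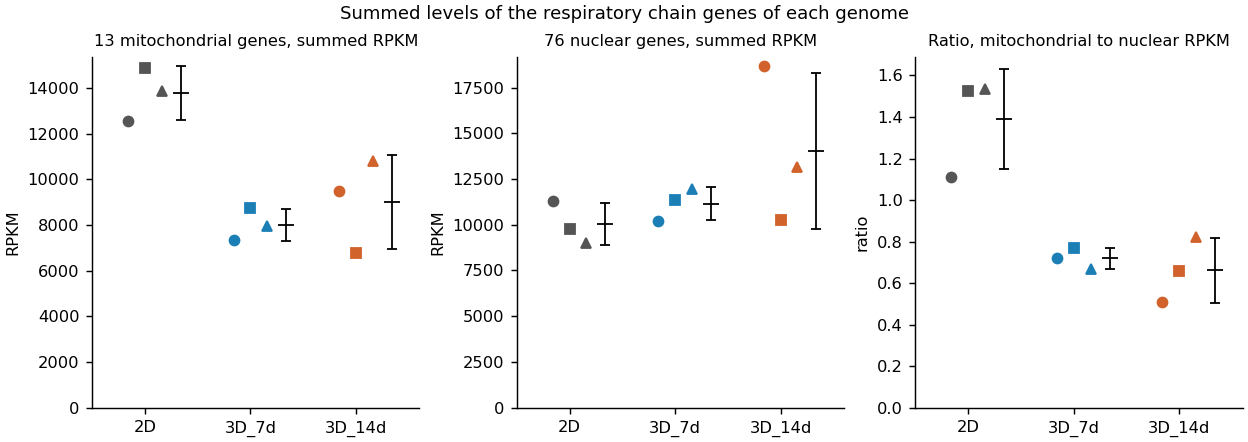
Summed RPKM of the 13 mitochondrial-encoded genes (left), of the 76 nuclear-encoded genes (middle) and their ratio (right) in each of the 9 samples, with points for samples (circle, square and triangle for replicates 1, 2 and 3) and a bar for mean ± SD (n = 3). The ratio is 1.11 to 1.54 in 2D and 0.507 to 0.821 in the 6 printed samples, with no overlap.

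The same order was found within each complex that both genomes build. In complex I, the ratio of mitochondrial to nuclear RPKM was 0.906 to 1.29 in 2D, 0.632 to 0.781 in 3D_7d and 0.372 to 0.814 in 3D_14d. In complex III, where MT-CYB is the only mitochondrial product, it was 0.460 to 0.638, 0.320 to 0.357 and 0.212 to 0.367. Complex IV had the highest ratio, at 2.98 to 4.28, 2.16 to 2.54 and 1.40 to 2.14, and complex V the lowest, at 0.357 to 0.500, 0.186 to 0.200 and 0.139 to 0.251. This order depends on the exon length of each gene, such as 5081 bases for ATP5F1E and 6048 for UQCRB. It was not computed with other lengths. In all 4 complexes the 2D samples lay above the 6 printed samples without overlap. These ratios and sums were not tested. They rest on the same counts as the gene tests that follow.

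Among the 13 mitochondrial-encoded genes, all of which passed the filter on low values, 8 were down-regulated in 3D_7d vs 2D and 0 were up-regulated, with a median log2 fold change of -0.80. In the same contrast 21.2% of all 13463 genes tested were down-regulated, and their median was -0.00. At an unadjusted p under 0.05 the edgeR counts were 9 lower and 0 higher, and DESeq2 called 9 lower and 0 higher. In 10 of 13 genes every 3D_7d sample lay below every 2D sample, against 32.4% of all genes. In 3D_14d vs 2D, 7 were down-regulated and 0 up-regulated, with a median of -0.65, while 17.2% of all genes were down-regulated. Here the unadjusted edgeR test and DESeq2 each gave 9 lower and 0 higher, and 7 genes had no overlap between groups on the lower side, against 25.5% of all genes. MT-ND2, MT-ND4, MT-CYB, MT-CO3 and MT-ATP6 were called lower at both times. Without 3D_14d replicate 2, 2 genes were called higher in 3D_14d vs 2D. With the trend on exon length taken out of each library, the down-regulated genes numbered 3 in 3D_7d vs 2D (MT-ND4 at -0.69, MT-CO2 at -0.44 and MT-CO3 at -0.82, with a median of -0.29 over the 13) and 7 in 3D_14d vs 2D. Both printed groups were compared with the same 2D samples.

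**Figure D2:**
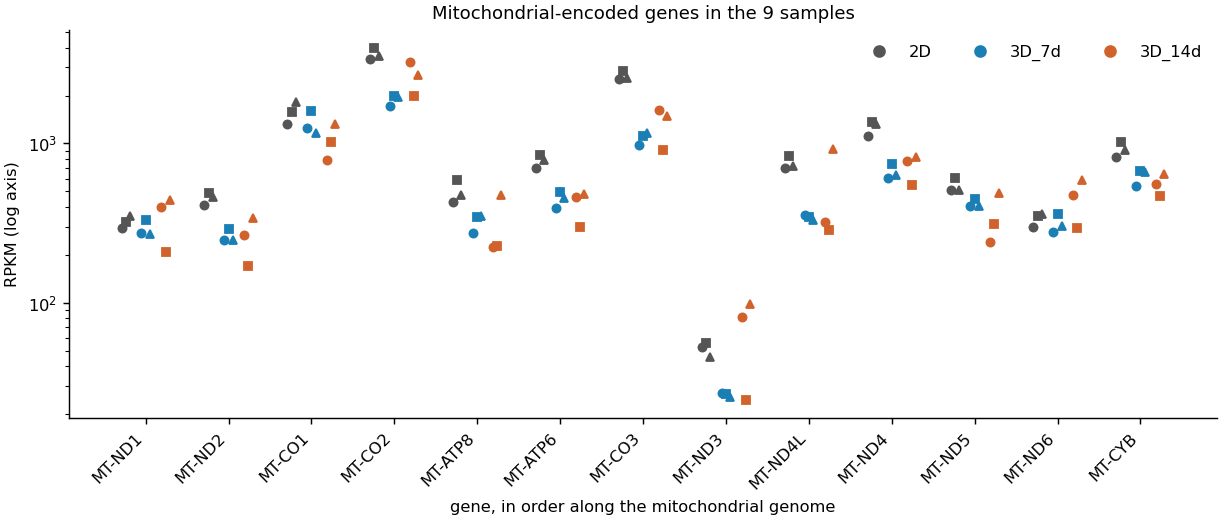
RPKM (log axis) of the 13 mitochondrial-encoded genes in order along the mitochondrial genome, with 1 point per sample, colored by group and shaped by replicate (circle 1, square 2, triangle 3). MT-CO2 and MT-CO3 are the highest in 2D and MT-ND3 the lowest, and the 3D_14d points of MT-ND4L spread from 287 to 925 RPKM.

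The 3 mitochondrial subunits of complex IV form its catalytic core, and per length they were the highest mitochondrial genes in 2D, at 3629 ± 318 RPKM for MT-CO2, 2658 ± 184 for MT-CO3 and 1569 ± 243 for MT-CO1. MT-CO3 was measured at 1979, 2248 and 2024 CPM in 2D, at 766, 876 and 914 in 3D_7d and at 1271, 713 and 1167 in 3D_14d. It was the most strongly reduced of the 13 at both times, with log2 fold changes of -1.29 ± 0.19 (SE, adjusted p = 0.000258) and -0.99 ± 0.19 (adjusted p = 0.0019). MT-CO2, which carries a copper center that receives electrons from cytochrome c, had 2304, 2725 and 2417 CPM in 2D, 1179, 1352 and 1332 in 3D_7d and 2235, 1365 and 1836 in 3D_14d. It fell in 3D_7d (log2 fold change -0.95 ± 0.17, adjusted p = 0.000941), whereas its 3D_14d value of -0.45 ± 0.17 had an adjusted p of 0.0566. The difference between the printed groups, 0.49 ± 0.17 (adjusted p = 0.0497), was lost without any single sample other than 3D_14d replicate 2 (adjusted p from 0.07 to 0.141) and was -0.08 with the length trend removed (adjusted p = 0.673), so no direction between day 7 and day 14 is given for MT-CO2. MT-CO1, the subunit that reduces oxygen, had 2045, 2420 and 2795 CPM in 2D, 1922, 2465 and 1785 in 3D_7d and 1218, 1580 and 2056 in 3D_14d. Its 3D_7d samples overlapped 2D (log2 fold change -0.23 ± 0.20, adjusted p = 0.367), and the call in 3D_14d (-0.58 ± 0.20, adjusted p = 0.0385) was lost without 2D replicate 2 or 3 (adjusted p = 0.0767 and 0.126) and without 3D_14d replicate 1 or 2 (0.0918 and 0.0808). Within the 3 mitochondrial subunits of complex IV, the measured changes in 3D_7d thus went from -1.29 to -0.23.

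Complex I takes 7 subunits from the mitochondrial genome, which form the proton-pumping membrane arm. MT-ND4 was the highest of them per length in 2D. It had 1534, 1881 and 1832 CPM in 2D, against 835, 1019 and 868 in 3D_7d and 1062, 753 and 1140 in 3D_14d. It fell at both times without overlap of the groups, by -0.95 ± 0.17 (adjusted p = 0.000882) and -0.83 ± 0.17 (adjusted p = 0.00276). MT-ND2 had 429, 512 and 478 CPM in 2D, 256, 301 and 256 in 3D_7d and 278, 177 and 352 in 3D_14d, with log2 fold changes of -0.80 ± 0.21 (adjusted p = 0.00781) and -0.81 ± 0.21 (adjusted p = 0.00887). The call in 3D_7d was lost with the length trend removed, at -0.442 (adjusted p = 0.0876 by edgeR). MT-ND4L, a short gene, went from 208.5, 249.2 and 212.9 CPM in 2D to 105, 102 and 97.7 in 3D_7d (-1.14 ± 0.34, adjusted p = 0.0169). With the length trend removed, the 3D_7d value of MT-ND4L was -0.465 (adjusted p = 0.275 by edgeR). Its 3D_14d samples, at 95.6, 85.1 and 275 CPM, lay on both sides of 2D, with replicate 3 high. MT-ND5 was at 922, 1101 and 927 CPM in 2D, 731, 809 and 733 in 3D_7d and 433, 562 and 889 in 3D_14d. Its call in 3D_14d (-0.65 ± 0.22, adjusted p = 0.0329) was lost without any single 2D sample (adjusted p between 0.0513 and 0.101) and without 3D_14d replicate 1 or 2 (0.0672 and 0.0913).

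MT-ND3 was the lowest mitochondrial-encoded gene, at 51.6 ± 5.24 RPKM in 2D, and went from 18.3, 19.4 and 15.9 CPM in 2D to 9.29, 9.20 and 8.80 in 3D_7d (-0.97 ± 0.36, adjusted p = 0.0452). That call was lost in every fit that left out a 2D or 3D_7d sample, with adjusted p from 0.0595 to 0.0994. It was also lost with the length trend removed, where the value of MT-ND3 was -0.318 (adjusted p = 0.415 by edgeR). In 3D_14d its samples split into 28.2 and 34.0 CPM for replicates 1 and 3 and 8.43 CPM for replicate 2. MT-ND1 and MT-ND6 had no call in any contrast. MT-ND1 was at 280, 308 and 334 CPM in 2D and 262, 315 and 258 in 3D_7d. MT-ND6, the only one of the 13 on the other strand, was at 156, 183 and 189 CPM in 2D, 146, 189 and 159 in 3D_7d and 248.5, 154.9 and 307.3 in 3D_14d. Both overlapped 2D at each time, with log2 fold changes from -0.14 to 0.43. MT-CYB, the mitochondrial subunit of complex III that binds both hemes b, had 934, 1159 and 1030 CPM in 2D, 621, 764 and 753 in 3D_7d and 637, 533 and 729 in 3D_14d. It fell by -0.55 ± 0.16 (adjusted p = 0.0135, and 0.0592 without 2D replicate 2) and by -0.72 ± 0.16 (adjusted p = 0.00376). The 3D_7d value was -0.223 with the length trend removed (adjusted p = 0.286 by edgeR). All 6 printed samples were below the 2D samples.

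The membrane channel of complex V has 2 mitochondrial-encoded subunits, whose reading frames overlap. MT-ATP8 spans chrM:8366-8572 and MT-ATP6 spans chrM:8527-9207 on the plus strand (GRCh38), and the same arrangement occurs in complex I, with MT-ND4L at chrM:10470-10766 and MT-ND4 at chrM:10760-12137. The stretches below are from the reference genome, at chrM:8507-8592 and chrM:10740-10786. Capitals mark the bases that belong to both reading frames, 46 and 7 of them, with 20 bases on each side. A read that covers only a part of the capitals overlaps both genes too, so bases beyond the capitals are also affected.
MT-ATP8 and MT-ATP6: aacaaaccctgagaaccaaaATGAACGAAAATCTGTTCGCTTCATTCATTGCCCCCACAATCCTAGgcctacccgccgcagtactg
MT-ND4L and MT-ND4: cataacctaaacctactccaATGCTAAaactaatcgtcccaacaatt
Each capital stretch opens with the start codon of the second gene. The shared bases are 22.2% of MT-ATP8 but 6.75% of MT-ATP6, and 2.36% of MT-ND4L. MT-ATP6, which forms the proton path, had 478, 573 and 539 CPM in 2D, 268, 338 and 310 in 3D_7d and 312, 204 and 330 in 3D_14d, and fell by -0.80 ± 0.18 (adjusted p = 0.00377) and -0.91 ± 0.18 (adjusted p = 0.00222). Its 3D_7d call was lost with the length trend removed, at -0.285 (adjusted p = 0.175 by edgeR). MT-ATP8 had 89.1, 122 and 98.8 CPM in 2D and 56.6, 71.3 and 72.6 in 3D_7d, with a log2 fold change of -0.63 ± 0.26 (adjusted p = 0.0678), and 46.3, 46.8 and 98.7 in 3D_14d (-0.69 ± 0.26, adjusted p = 0.0543).

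Reads of 3 mitochondrial genes could also fall on near-identical copies in the nuclear genome, which lie side by side on chromosome 1. MTND2P28 (chr1:629640-630683) shares 98.4% of the bases of MT-ND2, MTCO1P12 (chr1:631074-632616) 98.7% of MT-CO1 and MTATP6P1 (chr1:633696-634376) 98.5% of MT-ATP6. Counts on all nuclear copies together came to 20.9% to 26.1% of those on MT-ATP6, 4.27% to 8.05% of those on MT-CO1 and 2.31% to 3.92% of those on MT-ND2. The top copy of MT-ATP6 moved with it, from 114, 140 and 135 CPM in 2D to 65.2, 88 and 79.9 in 3D_7d. Levels of these genes are uncertain by the reads given to the copies.

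The nuclear-encoded set was centered near or above 2D. Of its 75 genes that passed the filter, 10 were up-regulated and 4 down-regulated in 3D_7d vs 2D, with a median log2 fold change of 0.09. Of all genes 22.2% were up-regulated and 43.4% called in either direction. At an unadjusted p under 0.05 there were 14 higher and 6 lower nuclear-encoded genes, and 11 and 6 by DESeq2. The count of 10 rested on single samples, with 17 when 3D_14d replicate 1 was left out, 6 when 3D_7d replicate 2 was, and 5 when 2D replicate 2, 2D replicate 3 or 3D_7d replicate 3 was. In 23 genes every 3D_7d sample was above every 2D sample and in 13 below, against 32.2% and 32.4% of all genes. In 3D_14d vs 2D, 25 were up-regulated and 2 down-regulated (median 0.49), where 19.0% of all genes were up-regulated, 17.2% down-regulated and 36.2% called in all. In 17 of 75 there was no overlap on the higher side, against 24.2% of all genes, and 2 on the lower side. The count of 25 was 5 without 2D replicate 3, 6 without 2D replicate 2, 16 without 3D_14d replicate 1 and 48 without 3D_14d replicate 2. In 3D_14d vs 3D_7d, 20 were up-regulated and 3 down-regulated (median 0.47), with 14.5% and 13.6% of all genes called in these directions and 28.1% in all, and 8 and 6 nuclear genes with the length trend removed. The count of 20 was 7 without 3D_7d replicate 1 or 2, 13 without 3D_7d replicate 3 or 3D_14d replicate 1 and 46 without 3D_14d replicate 2. With the length trend removed, 30 nuclear genes were called higher in 3D_7d vs 2D and the median was 0.32.

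**Figure D3:**
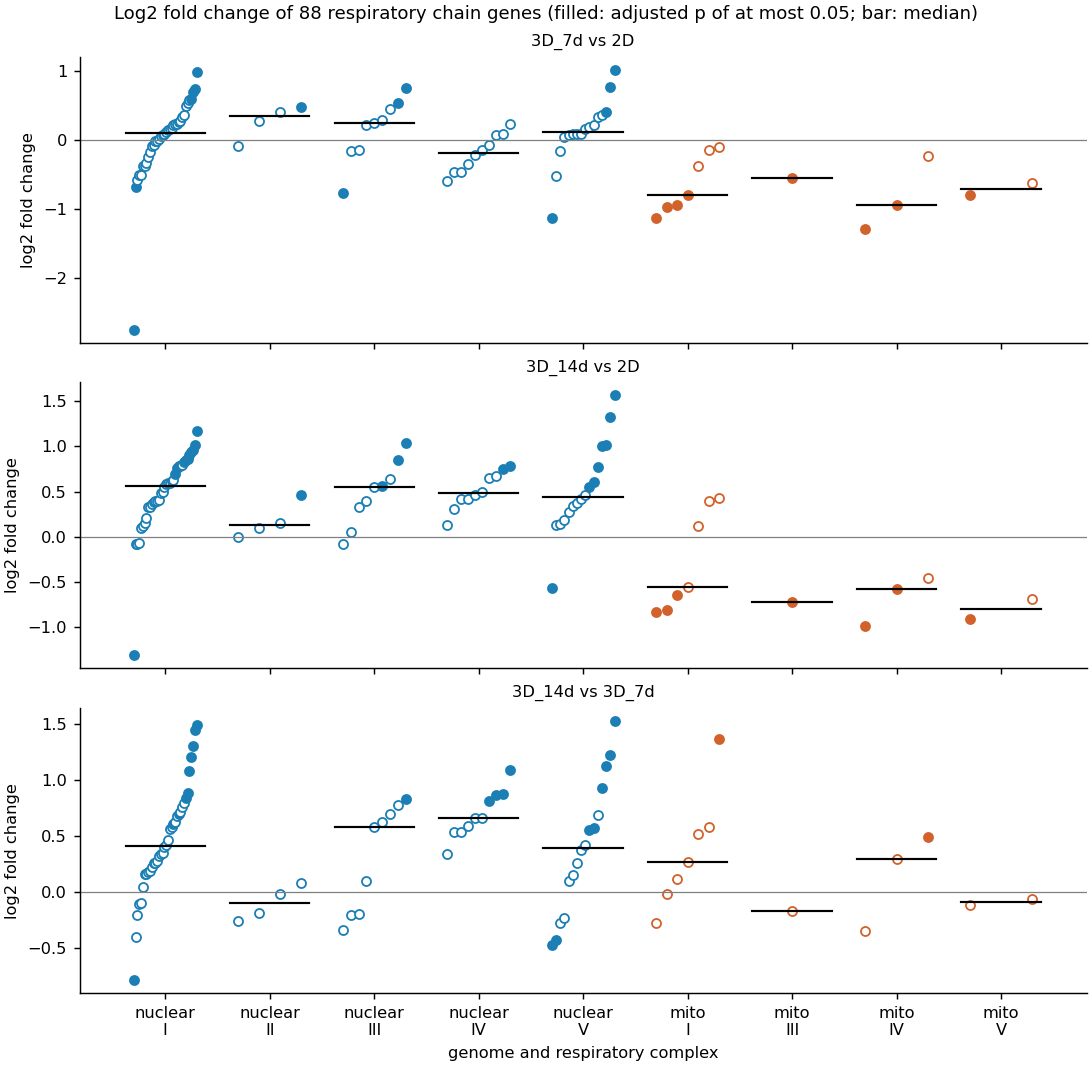
Log2 fold change (vertical axis) of the 88 genes tested, by genome and complex, in 3D_7d vs 2D (top), 3D_14d vs 2D (middle) and 3D_14d vs 3D_7d (bottom), with filled points for an adjusted p of at most 0.05 and a bar for the median. The medians of the 13 mitochondrial genes are -0.80 and -0.65 against 2D, those of the 75 nuclear genes 0.09 and 0.49.

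The distance between the 2 sets was a measure added after the data had been seen. The median of the mitochondrial-encoded genes lay 0.89 below that of the nuclear-encoded genes in 3D_7d vs 2D, a difference of -0.89 on the log2 scale. Over 19 other fits, this difference ranged from -1.07 to -0.60, the latter with the length trend removed. In 3D_14d vs 2D it was -1.14, with -0.70 without 3D_14d replicate 1 and -1.51 without 3D_14d replicate 3 as the ends of the range. Nuclear-encoded genes with an exon length at or under 1587 bases, nearest in length to the mitochondrial ones, had medians against the 2D mean of -0.09, 0.07 and 0.14 in the 3D_7d samples, where the mitochondrial medians were -0.88, -0.64 and -0.77. In the 3D_14d samples the same nuclear medians varied more, at 1.12, -0.08 and 0.54, where the mitochondrial medians were -0.71, -1.08 and -0.22. A part of exon length in the distance between the sets was not tested.

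Within the nuclear set, 21 subunits taken as catalytic or central were set beside the other 54, called accessory here. The 21 are the subunits of the NADH-oxidizing and electron-transfer arm of complex I such as NDUFS1, the 4 of complex II, CYC1, UQCRFS1, UQCRC1 and UQCRC2 of complex III, and ATP5F1A, ATP5F1B and ATP5F1C of complex V. They also include COX4I1, COX5A and COX5B of complex IV, which carry no redox center, so that the set is a mixed one. The other 54 are mixed too. They include ATP5MC1, ATP5MC2 and ATP5MC3, which encode the c subunit of the rotating ring, and ATP5F1D and ATP5F1E of the stalk. Accessory therefore means no more than outside the 21. In 3D_7d vs 2D, 7 of 21 core and 3 of 54 accessory subunits were up-regulated, with medians of 0.28 and 0.07, beside 22.2% of all genes. The core count was 4 without 2D replicate 2, 2D replicate 3 or 3D_7d replicate 3, and the accessory count was 1 when any 2D sample or 3D_7d replicate 2 or 3 was left out and 7 when 3D_14d replicate 1 or 2 was. In 3D_14d vs 2D the counts were 4 core and 21 accessory (medians 0.34 and 0.59), beside 19.0% of all genes. Leaving out 2D replicate 2 gave 0 and 6, and leaving out 2D replicate 3 gave 0 and 5. Of the 3D_14d samples, replicate 1 left out gave 4 and 12, replicate 2 left out 8 and 40, and replicate 3 left out 8 and 16. In 3D_14d vs 3D_7d, 2 core and 18 accessory subunits were up-regulated, with medians of 0.05 and 0.60, beside 14.5% of all genes. The accessory count was 6 without 3D_7d replicate 1 or 2 and 42 without 3D_14d replicate 2. The 3 down-regulated genes in that contrast were all core, beside 13.6% of all genes, and 1 was left in 6 of the 9 fits without a single sample. The median exon length was 2243 bases in the core and 1401 in the accessory set. With the length trend removed, 11 core and 19 accessory subunits were up-regulated in 3D_7d vs 2D, and 1 core and 7 accessory in 3D_14d vs 3D_7d, with medians of -0.21 and 0.19. The accessory medians against the 2D mean were 1.10, -0.11 and 0.55 in 3D_14d replicates 1, 2 and 3, so that replicate 2 lay within the 2D medians of -0.16 to 0.21 and the others above them. The core medians in the same samples were 0.53, 0.21 and 0.04, and in 3D_7d they were 0.22, 0.30 and 0.31. The difference between the core and accessory sets was not tested.

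**Figure D4:**
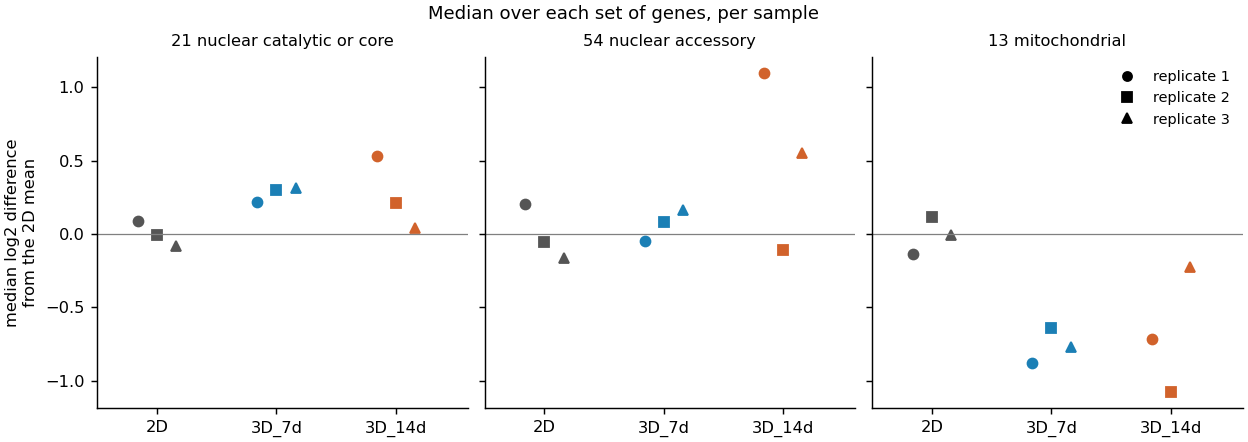
Median log2 difference from the 2D mean over the 21 nuclear core, 54 nuclear accessory and 13 mitochondrial genes, with 1 point per sample. Core medians are 0.22 to 0.31 in 3D_7d, accessory medians spread from -0.11 to 1.10 in 3D_14d, and every printed sample is below the 2D samples in the mitochondrial set.

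Complex I had 36 nuclear-encoded genes tested, of which 4 were up-regulated and 2 down-regulated in 3D_7d vs 2D, and 12 and 1 in 3D_14d vs 2D. These are 11.1% and 5.56% of them in 3D_7d, where 22.2% and 21.2% of all genes were called, and 33.3% and 2.78% in 3D_14d, where 19.0% and 17.2% were. NDUFS1, the largest iron-sulfur subunit of the arm that takes electrons from NADH, had 67.3, 73.0 and 74.6 CPM in 2D, 118, 158 and 151 in 3D_7d and 68.1, 101 and 79.1 in 3D_14d. It rose in 3D_7d (0.99 ± 0.17, adjusted p = 0.0006) and was lower again in 3D_14d vs 3D_7d (-0.79 ± 0.17, adjusted p = 0.0053), with no overlap of the groups in either contrast. NDUFS3, another core subunit of that arm, went from 94.4, 87.6 and 84.0 CPM in 2D to 142, 138 and 154 in 3D_7d and 213, 122 and 114 in 3D_14d. Its calls (0.70 ± 0.21, adjusted p = 0.015, and 0.76 ± 0.21, adjusted p = 0.0127) were lost without 2D replicate 2 or 3, at adjusted p of 0.0685 and 0.0799 in 3D_7d and 0.0578 and 0.0681 in 3D_14d, and the first also without 3D_7d replicate 3 (0.0728). The core subunits NDUFS7, NDUFS8 and NDUFV1 had no call in any contrast, with log2 fold changes from -0.25 to 0.60. NDUFV2, an iron-sulfur subunit of the NADH-oxidizing tip, was the exception. It had 3.63, 4.20 and 4.29 CPM in 2D, 0.415, 0.676 and 0.703 in 3D_7d and 1.59, 1.14 and 2.16 in 3D_14d, and fell by -2.75 ± 0.38 (adjusted p = 0.000137) and -1.31 ± 0.35 (adjusted p = 0.0121). These values are uncertain. Counts on its processed copy NDUFV2P1 were 41.7% to 60% of those on NDUFV2 in 2D, 257% to 408% in 3D_7d and 177% to 251% in 3D_14d, and 42.6% of its exonic bases are shared with another gene on the same strand.

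Among the accessory subunits of complex I, NDUFC2 was called higher at both times, from 24.1, 20.3 and 20.4 CPM in 2D to 29.8, 32.5 and 35.5 in 3D_7d and 59.9, 31.8 and 39.5 in 3D_14d. The change in 3D_14d was 1.02 ± 0.21 (adjusted p = 0.00286), while that in 3D_7d (0.59 ± 0.21, adjusted p = 0.0375) was lost in all 6 fits without a 2D or 3D_7d sample, at adjusted p from 0.0618 to 0.156. NDUFB1, a small subunit of the membrane arm, had 46.9, 36.3 and 31.1 CPM in 2D, 30.5, 27.3 and 33.1 in 3D_7d and 114, 30.3 and 112 in 3D_14d. The 3D_14d value thus came from replicates 1 and 3, and replicate 2 was under all 2D samples. Its difference between the printed groups was 1.49 ± 0.37 (adjusted p = 0.0107), and 0.96 with the length trend removed (adjusted p = 0.0364). NDUFC1 had 70.2, 62.8 and 54.9 CPM in 2D, 46.6, 45.1 and 52.5 in 3D_7d and 133, 60.8 and 111 in 3D_14d, with 1.08 ± 0.23 (adjusted p = 0.00541) between the printed groups, where the groups did not overlap. NDUFA7 was at 0 to 0.0899 CPM in the 9 samples, did not pass the filter and was not tested, and 75.9% of its exonic bases are shared with another gene. In all, 27 of the 76 nuclear-encoded genes share over 10% of their exonic bases with another gene and 41 share none. Among the 49 that share at most 10%, 12 were called higher in 3D_14d vs 2D, an alternative chosen after seeing the data. Over all 75 nuclear-encoded genes tested the count was 25, so the 2 counts rest on sets of different size. Of all genes, 19.0% were called higher in that contrast.

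Complex II, succinate dehydrogenase, links the chain to the tricarboxylic acid (TCA) cycle and has no mitochondrial-encoded part. Of its 4 genes only SDHC, a membrane anchor, was called, from 72.0, 66.5 and 63.5 CPM in 2D to 83.6, 98.0 and 99.7 in 3D_7d and 90.0, 90.3 and 97.6 in 3D_14d. The samples of both printed groups were above all 2D samples, with log2 fold changes of 0.48 ± 0.13 (adjusted p = 0.0112) and 0.46 ± 0.13 (adjusted p = 0.0164). Both calls were lost without 2D replicate 2 or 3 (adjusted p from 0.0809 to 0.11), and the first also without 3D_7d replicate 2 or 3 (0.071 and 0.0803). SDHB, the iron-sulfur subunit, had 173, 152 and 141 CPM in 2D, 132, 153 and 156 in 3D_7d and 181, 138 and 148 in 3D_14d, and its log2 fold changes of -0.08 and 0.00 were under their errors. SDHD had a value of 0.41 ± 0.16 in 3D_7d (adjusted p = 0.0523). SDHA, the flavoprotein, is uncertain too, since 68.3% of its exonic bases are shared with another gene and its copies had 82.6% to 185% of its counts. Its values were 0.28 ± 0.15 and 0.10 ± 0.15.

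In complex III, 2 of 9 genes were up-regulated and 1 was down-regulated in 3D_7d vs 2D, where 22.2% and 21.2% of all genes were. CYC1, cytochrome c1, had 427, 396 and 373 CPM in 2D, 643, 689 and 682 in 3D_7d and 732, 572 and 459 in 3D_14d, and all 6 printed samples were above the 2D samples. It rose by 0.75 ± 0.17 in 3D_7d (adjusted p = 0.00291) and by 0.56 ± 0.17 in 3D_14d (adjusted p = 0.0183, with 0.0851 and 0.104 without 2D replicate 2 or 3). UQCRC1, a core structural subunit, was at 599, 606 and 556 CPM in 2D and 742, 881 and 926 in 3D_7d. Its call (0.53 ± 0.18, adjusted p = 0.0328) was lost without any 2D sample or 3D_7d replicate 2 or 3, at adjusted p from 0.103 to 0.15. UQCRH, the small acidic hinge subunit next to cytochrome c1, had 336, 277 and 253 CPM in 2D, 159, 166 and 182 in 3D_7d and 417, 195 and 288 in 3D_14d. It fell in 3D_7d (-0.77 ± 0.23, adjusted p = 0.0147), without overlap, but the value was -0.20 with the length trend removed (adjusted p = 0.301), and the call was lost without 2D replicate 1 or 3D_7d replicate 1 (0.0587 and 0.0519). UQCR11 rose in 3D_14d, from 49.1, 40.1 and 39.8 CPM in 2D to 120, 53.99 and 91.6 (1.04 ± 0.24, adjusted p = 0.00478). The Rieske iron-sulfur protein UQCRFS1 and the core protein UQCRC2 had no call in any contrast.

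None of the 10 nuclear-encoded genes of complex IV was called in 3D_7d vs 2D by edgeR. Of all genes, 22.2% were called higher and 21.2% lower there. At an unadjusted p under 0.05 there were 0 higher and 1 lower, and DESeq2 called 0 higher and 1 lower. The median was -0.18. In 3D_14d vs 2D all 10 values were above 0 (median 0.48). Only COX6A1 and COX7B were called higher, or 20% of the 10 genes beside 19.0% of all genes. COX6A1 had 123.0, 105.5 and 98.05 CPM in 2D and 263, 131 and 167 in 3D_14d (0.78 ± 0.22, adjusted p = 0.016, with 0.0714 and 0.0884 without 2D replicate 2 or 3). COX7A2 stood at 227, 178 and 177 CPM in 2D, 113, 130 and 143 in 3D_7d and 356, 152 and 311 in 3D_14d. It differed between the printed groups by 1.09 ± 0.25 (adjusted p = 0.00789), or by 0.65 with the length trend removed (adjusted p = 0.0321), and every 3D_14d sample was above every 3D_7d sample. COX8A had the lowest of the 10 values, 0.13. COX5A, COX5B and COX4I1 had no call against 2D. COX4I1 had 498, 427 and 423 CPM in 2D, 389, 434 and 458 in 3D_7d and 895, 476 and 490 in 3D_14d, so that 3D_14d replicate 1 alone was far above 2D. In the same samples the mitochondrial MT-CO3 was lower in all 6 printed samples.

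Complex V showed the largest rise of a nuclear-encoded gene in 3D_7d. ATP5F1B, the beta subunit that carries the catalytic sites, was the most abundant nuclear-encoded gene per length in 2D, at 932 RPKM. It had 1685, 1683 and 1551 CPM in 2D, 2831, 3613 and 3530 in 3D_7d and 2489, 2594 and 2127 in 3D_14d. The rise in 3D_7d was 1.02 ± 0.15 (adjusted p = 0.000172), that in 3D_14d 0.55 ± 0.14 (adjusted p = 0.00985, with 0.0529 and 0.0718 without 2D replicate 2 or 3). ATP5F1A, the alpha subunit beside it, had 794, 784 and 752 CPM in 2D and 1197, 1393 and 1374 in 3D_7d, a rise of 0.77 ± 0.15 (adjusted p = 0.00138). In 3D_14d it had 1124, 1021 and 799 CPM, with 0.34 ± 0.15 (adjusted p = 0.0931). ATP5F1C, the central stalk, had no call in any contrast. ATP5MC2 encodes the c subunit of the rotating ring, a protein that ATP5MC1 and ATP5MC3 encode too. It went from 240, 212 and 195 CPM in 2D to 97.7, 95.2 and 103 in 3D_7d and 190, 113 and 134 in 3D_14d. It fell by -1.13 ± 0.18 (adjusted p = 0.000395) and by -0.57 ± 0.18 (adjusted p = 0.0253), and the second call was lost without 2D replicate 1 or 2 (0.0949 and 0.06) and without 3D_14d replicate 2 or 3 (0.0725 and 0.0717). The other c subunit genes had no call, with ATP5MC3 at 424, 375 and 348 CPM in 2D and 396, 443 and 440 in 3D_7d, and ATP5MC1 at 198, 170 and 153 and 208, 224 and 237.

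Of the 16 nuclear-encoded genes of complex V, 7 were up-regulated and 1 down-regulated in 3D_14d vs 2D, or 43.8% and 6.25% beside 19.0% and 17.2% of all genes. ATP5F1E, the epsilon subunit of the stalk, had 234, 181 and 151 CPM in 2D, 215, 231 and 267 in 3D_7d and 835, 255 and 581 in 3D_14d. The log2 fold change of 1.56 ± 0.32 in 3D_14d vs 2D (adjusted p = 0.00265) was the highest of the 88 genes. ATP5ME, a membrane subunit with 303 exonic bases, had 41.2, 28.2 and 24.1 CPM in 2D, 20.3, 19.5 and 25.4 in 3D_7d and 80.9, 23.4 and 83.8 in 3D_14d. Its difference between the printed groups was 1.53 ± 0.38 (adjusted p = 0.0101), and 0.84 with the length trend removed (adjusted p = 0.0507), while that against 2D (1.01 ± 0.37, adjusted p = 0.0481) was lost in 7 of the 9 fits without a single sample, at adjusted p from 0.0639 to 0.183 and the lowest value, 0.75, without 3D_14d replicate 3. It was also lost with DESeq2, the replicate block, the filterByExpr filter, scaling by total counts or without mitochondrial, immunoglobulin and ribosomal protein genes, and the fit of 6 samples, so no direction against 2D is given for ATP5ME. In both genes 3D_14d replicate 2 was the lowest of its group and within or close to the 2D range.

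Some subunits have an alternative isoform that replaces the common one in certain tissues or at low oxygen. NDUFA4L2, the paralog of NDUFA4 that is known as a target of hypoxia-inducible factors, had 9.15, 8.55 and 7.22 CPM in 2D, 0.588, 0.950 and 0.304 in 3D_7d and 20.4, 18.9 and 13.02 in 3D_14d. The 3 groups did not overlap. It fell by -3.75 ± 0.35 in 3D_7d (adjusted p = 1.12e-05) and differed by 4.82 ± 0.36 between 3D_14d and 3D_7d (adjusted p = 1.52e-05). NDUFA4L2 was under 1 CPM in every 3D_7d sample, so that the size of both changes is uncertain. Its value in 3D_14d vs 2D was 1.07 ± 0.30 (adjusted p = 0.0146, with 0.052 and 0.0728 without 2D replicate 2 or 3). NDUFA4 itself, named after complex I but known as a part of complex IV, was at 333, 288 and 281 CPM in 2D, 382, 445 and 492 in 3D_7d and 779, 366 and 541 in 3D_14d. COX4I2, the paralog of COX4I1, had 5.76, 3.93 and 4.38 CPM in 2D, 3.62, 2.92 and 3.44 in 3D_7d and 11.04, 8.52 and 12.2 in 3D_14d. It rose in 3D_14d by 1.18 ± 0.24 (adjusted p = 0.00256) and its value in 3D_7d was -0.49 ± 0.24 (adjusted p = 0.116). Both isoforms stayed far below their common partner in CPM, a comparison that is not per length. Of the 9 isoform genes listed, 3 passed the filter, the third being UQCRHL, a near copy of UQCRH, at 2.73 to 7.37 CPM and with no call.

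**Figure D5:**
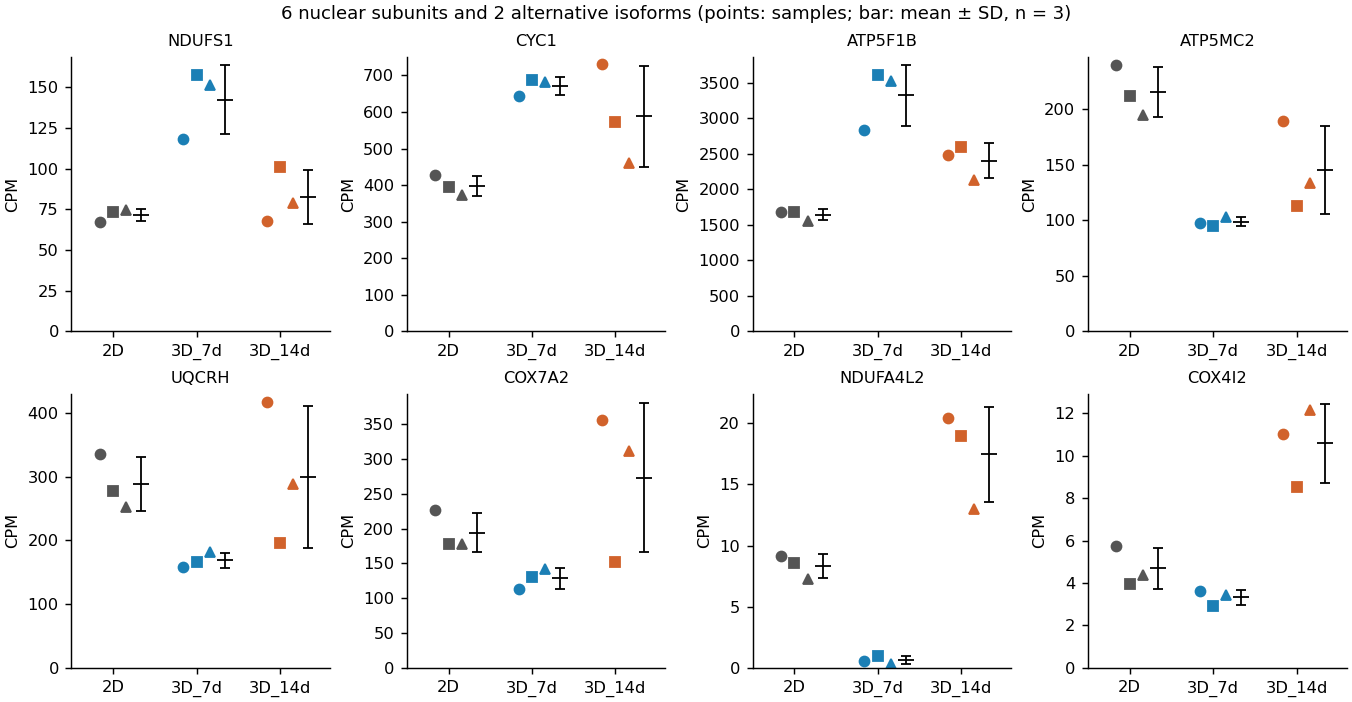
CPM of 6 nuclear-encoded subunits and 2 alternative isoforms in each sample (points; circle, square and triangle for replicates 1, 2 and 3) with mean ± SD (n = 3), each panel on its own axis from 0. NDUFS1 and ATP5F1B are highest in 3D_7d, ATP5MC2 is lowest there, and NDUFA4L2 goes from 7.22 to 9.15 CPM in 2D to 0.304 to 0.950 in 3D_7d and 13.02 to 20.4 in 3D_14d.

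Genes around the chain were counted from lists of genes by function. Of 17 TCA cycle genes, 8 rose and 1 fell in 3D_7d vs 2D (median 0.32). These were 47.1% and 5.88% of the list, beside 22.2% and 21.2% of all genes. In 3D_14d vs 3D_7d, 0 rose and 9 fell by edgeR, the latter 52.9% of the list beside 13.6% of all genes. At edgeR's unadjusted p under 0.05 there were 0 higher and 11 lower, and DESeq2 called 0 and 9. CS, citrate synthase, went from 134 ± 9.71 CPM in 2D to 285 ± 6.80 in 3D_7d and 137 ± 27.7 in 3D_14d, with 1.09 ± 0.16 in 3D_7d vs 2D (adjusted p = 0.000191) and -1.06 ± 0.16 in 3D_14d vs 3D_7d (adjusted p = 0.000681). OGDH, a subunit of the oxoglutarate dehydrogenase complex, rose by 1.30 ± 0.17 in 3D_7d (adjusted p = 9.41e-05), and SUCLG2, a subunit of succinate-CoA ligase, fell by -0.64 ± 0.17 (adjusted p = 0.00804). Of 31 genes of mitochondrial transcription and RNA processing, 11 rose and 1 fell in 3D_7d vs 2D. These were 35.5% and 3.23% of the list, beside 22.2% and 21.2% of all genes. In 3D_14d vs 3D_7d, 0 rose and 14 fell (0 and 16 without adjustment, 0 and 15 by DESeq2). The falls were 45.2% of the list beside 13.6% of all genes. FASTKD5, which is needed to process mitochondrial precursors without tRNA at the cut, had 21.7 ± 1.28 CPM in 2D, 72.5 ± 7.40 in 3D_7d and 43.7 ± 6.84 in 3D_14d, with 1.74 ± 0.16 in 3D_7d vs 2D (adjusted p = 1.06e-05). ELAC2, which cuts the 3′ side of tRNAs, had 43.3 ± 4.10, 122.8 ± 11.02 and 57.9 ± 4.67 CPM and a value of 1.503 ± 0.143 (adjusted p = 1.21e-05). TFB2M, a factor that opens mitochondrial promoters, fell in 3D_14d (-0.60 ± 0.15, adjusted p = 0.00674).

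Of 51 assembly factors, 10 rose and 6 fell in 3D_7d vs 2D and 12 and 2 in 3D_14d vs 2D. The rises were 19.6% and 23.5% of the list, near the 22.2% and 19.0% of all genes. The falls were 11.8% and 3.92% of the list, beside 21.2% and 17.2% of all genes. NDUFAF1, an assembly factor of complex I, was at 57.3 ± 3.31, 116 ± 10.1 and 99.4 ± 9.66 CPM in 2D, 3D_7d and 3D_14d, and COX20, which helps to insert MT-CO2, at 31.4 ± 1.03, 64.2 ± 4.83 and 64.8 ± 15.2 CPM. Both rose at both times, with log2 fold changes of 1.02 ± 0.14 and 0.79 ± 0.14 for NDUFAF1 (adjusted p = 0.000118 and 0.000838) and 1.03 ± 0.17 and 1.05 ± 0.17 for COX20 (adjusted p = 0.000547 and 0.000683). Of 27 genes tested for protein import and the outer membrane, 9 rose and 4 fell in 3D_7d vs 2D, or 33.3% and 14.8% beside 22.2% and 21.2% of all genes. SAMM50, which inserts outer membrane proteins, rose by 1.19 ± 0.15 (adjusted p = 6.42e-05), and TOMM20, an import receptor, fell by -0.67 ± 0.14 (adjusted p = 0.00222). Of 20 carriers and further subunits, 7 rose and 0 fell in 3D_7d vs 2D by edgeR (9 and 0 at an unadjusted p under 0.05, 7 and 0 by DESeq2), or 35% higher beside 22.2% of all genes. Among them was SQOR, which passes electrons from sulfide to ubiquinone, at 13.7 ± 1.42 CPM in 2D, 37.7 ± 3.74 in 3D_7d and 43.8 ± 3.62 in 3D_14d. Of 14 regulators of mitochondrial biogenesis tested, 3 rose and 4 fell in 3D_7d vs 2D, or 21.4% and 28.6% beside 22.2% and 21.2% of all genes. ESRRA, a nuclear receptor of mitochondrial genes, rose by 0.83 ± 0.15 and 0.92 ± 0.15 (adjusted p = 0.000927 and 0.000669), while MYC went from 459 ± 30.6 CPM in 2D to 93.0 ± 16.8 in 3D_7d and 108 ± 27.7 in 3D_14d. PPRC1, a coactivator of the PGC-1 family, was at 63.8 ± 5.67, 110 ± 4.62 and 50.1 ± 15.7 CPM, and fell in 3D_14d vs 3D_7d (-1.14 ± 0.21, adjusted p = 0.00209).

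Many respiratory chain promoters are known to hold sites of NRF1 and of the ETS factor GABPA. Promoter windows from RefSeq (GRCh38.p14), 250 bases before to 50 after a gene's start, were matched for 63 of the 76 nuclear-encoded genes. The motif of NRF1 (GCGCATGCG, either strand) was in 15.9% of them against 2.1% of all promoters in the table and 4% of those of genes tested. The ETS motif (CCGGAAG) was in 31.7% against 10.7% and 20.6%, and that of YY1 (AAGATGGCG) in 12.7% against 1.85% and 4.24%. The stretches below show the motif, in capitals, 5′ to 3′ on the gene's strand, in some of the genes named above. The position of its first base before the gene's start is -157 in NDUFS1, -102 in NDUFS3 and -46 in UQCRH. It is -117 in UQCR11, -41 in ATP5MC2 and -78 in ATP5ME.
NDUFS1, ETS motif, chr2:206159583-206159612, minus strand: ggctggggccaCTTCCGGcggaactgcggg
NDUFS3, ETS motif, chr11:47578961-47578990, plus strand: cggaacctccgCTTCCGGctccacgtccgc
UQCRH, ETS motif, chr1:46303641-46303670, plus strand: agtgtgccgcaCTTCCGGccagatcgccgg
UQCR11, ETS motif, chr19:1605561-1605590, minus strand: tccaaccctcgCCGGAAGttactgtaagtg
ATP5MC2, NRF1 motif, chr12:53676105-53676134, minus strand: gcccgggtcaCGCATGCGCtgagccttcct
ATP5ME, NRF1 motif, chr4:674335-674364, minus strand: gccgctgacgGCGCATGCGtgcgcccagct
In 3D_7d vs 2D, NDUFS1 and NDUFS3 were called higher and UQCRH lower, and all 3 hold the ETS motif in their windows. The UQCRH value was -0.195 with the length trend removed (adjusted p = 0.301 by edgeR). The calls of NDUFS3 and UQCRH were lost without some single samples, as given above. A part of the motifs in these changes was not tested. Of the 20 genes with the ETS motif, 2 were up-regulated and 1 down-regulated in 3D_7d vs 2D, and 7 and 0 in 3D_14d vs 2D. Over all genes, 22.2% and 21.2% were called in 3D_7d vs 2D and 19.0% and 17.2% in 3D_14d vs 2D. Of the 10 with the NRF1 motif, 0 and 1 were called in 3D_7d vs 2D and 3 and 1 in 3D_14d vs 2D. Of the 32 with none of the 3 motifs, 2 and 1 were called in 3D_7d vs 2D and 12 and 1 in 3D_14d vs 2D. Of 7 genes tested with the YY1 motif, 2 and 1 were called in 3D_7d vs 2D and 0 and 0 in 3D_14d vs 2D.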

How the data were processed

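The authors trimmed single reads of SMART-Seq v4 libraries with Trimmomatic (version 0.39), aligned them to GRCh38 with STAR (version 2.5.3a) and assigned them to genes with featureCounts (version 1.6.4). Its settings for strand and for reads with several matches are not given in the sources used here. The deposited values are raw counts per gene symbol and, as another column, the length of each gene's exons in bases. Total counts were 54662799 to 85968686 per sample.

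The filter on low values kept 13463 of the 51726 genes with any count, those over 1 CPM in 3 samples or more. In R (version 4.3.3), edgeR (version 4.0.16) gave TMM factors and 1 quasi-likelihood fit of the 9 samples with a mean per group, tested in 3 contrasts (two-sided). P-values were adjusted over all genes of a contrast by the Benjamini-Hochberg method, with a threshold of 0.05, and "called", "up-regulated" and "down-regulated" refer to it. A prior count of 2 was added for log2 values of single samples. Sums and ratios of RPKM were not tested. The scripts were tested on simulated data. Replicates differed by more than the sampling noise, so each was counted as 1 sample. Alternatives were DESeq2 (version 1.42.0), other scalings and filters, fits restricted to a contrast's own 6 samples, a block for replicate number, removal of a loess trend of log2 expression on exon length (span 0.4) from each library, a minimum log2 fold change of 1 and each sample left out.

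The members and lists were chosen with earlier results of these data known. Genes named with statistics are all mitochondrial-encoded genes, the core subunits, the extremes and smallest p-values of each complex and contrast and, in the other lists, the smallest p-value in each direction. NDUFA4, ATP5MC1, ATP5MC3, NDUFA7, NDUFA13, NDUFB4, NDUFA3, NDUFA1, COX7B, COX7C, COX6C and UQCRHL were named after their values were seen. Near-copies were aligned end to end, and motifs were searched in the first promoter window listed for a gene.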

Additional observations from a re-analysis of the deposited data

Results flagged for a closer look

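For 8 genes the change against 2D had opposite signs at day 7 and day 14, at least 1 of these changes was called, and the difference between the printed groups was itself called by edgeR. These differences, in log2 units of 3D_14d vs 3D_7d, were 1.08 for NDUFC1 (adjusted p = 0.00541), 1.49 for NDUFB1 (adjusted p = 0.0107), 0.85 for NDUFA13 (adjusted p = 0.0227), 0.83 for UQCRH (adjusted p = 0.0166), 1.53 for ATP5ME (adjusted p = 0.0101) and 1.37 for MT-ND3 (adjusted p = 0.0151). Both alternative isoforms were among them, with 4.82 for NDUFA4L2 (adjusted p = 1.52e-05) and 1.67 for COX4I2 (adjusted p = 0.000678). The size for NDUFA4L2 is uncertain, since it was under 1 CPM in every 3D_7d sample. The day 7 value of NDUFA13 was -0.02 and the day 14 value of UQCRH 0.06, so that their signs there have no weight. With the length trend removed, the calls for UQCRH, ATP5ME and MT-ND3 were lost (adjusted p = 0.378, 0.0507 and 0.109). The call for UQCRH was also lost without 3D_7d replicate 1 or 2 (0.06 and 0.0626), and that for MT-ND3 without 3D_7d replicate 3 or 3D_14d replicate 3 (0.0502 and 0.0686). A further 7 genes had opposite signs and a called difference between the printed groups but no call against 2D. They are NDUFB4, NDUFA3, NDUFA1, COX5B, COX7C, COX7A2 and COX6C. Of all genes, 28.1% were called in 3D_14d vs 3D_7d. The share of all genes that meets either rule was not counted, so these numbers have no background beside them.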

How the results depend on the processing

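The direction of the genome medians against 2D was kept in 3D_7d and 3D_14d for the mitochondrial-encoded genes under all alternatives run, while counts of calls moved widely. Scaling by total counts alone moved the median of all genes to -0.161 in 3D_7d vs 2D, -0.184 in 3D_14d vs 2D and -0.047 in 3D_14d vs 3D_7d. It gave 6 nuclear-encoded genes called higher and 9 lower in 3D_7d vs 2D (main 10 and 4), with a nuclear median of -0.066 and a mitochondrial median of -0.956, 13 higher in 3D_14d vs 2D (main 25), and 5 nuclear lower and 1 mitochondrial higher in 3D_14d vs 3D_7d (main 3 and 2). Fits of only 6 samples gave 20 nuclear higher and 15 lower in 3D_7d vs 2D, 14 higher and 1 lower in 3D_14d vs 2D, and 1 nuclear lower and 1 mitochondrial higher in 3D_14d vs 3D_7d. DESeq2 called 34 nuclear genes higher in 3D_14d vs 3D_7d (main 20). DESeq2's size factors, the filterByExpr filter and no filter each left 1 mitochondrial gene higher there, and no filter 1 nuclear gene lower. The cause was not tested for any of these.

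With the length trend removed, 30 nuclear genes were called higher and 2 lower in 3D_7d vs 2D (median 0.319) and 3 mitochondrial genes lower (median -0.285), and the difference of the 2 medians was -0.604. In 3D_14d vs 3D_7d, 8 nuclear genes were higher and 6 lower, 0 mitochondrial genes were higher by edgeR and 2 lower, and the mitochondrial median turned from 0.119 to -0.239. MT-CO2 turned to -0.084 (adjusted p = 0.673) in that contrast. A minimum log2 fold change of 1 left 1 nuclear gene higher, 2 nuclear lower and 2 mitochondrial lower in 3D_7d vs 2D, 7, 1 and 0 in 3D_14d vs 2D, and 9 nuclear higher, 0 nuclear lower and 1 mitochondrial higher in 3D_14d vs 3D_7d. Genes sharing at most 10% of their exonic bases, a choice made after seeing the data, gave 12 nuclear higher and 1 lower in 3D_14d vs 2D and 12 higher in 3D_14d vs 3D_7d. These counts are over 49 nuclear-encoded genes rather than 75. The log2 ratio of summed mitochondrial to nuclear levels was 0.460 in 2D, -0.479 in 3D_7d and -0.621 in 3D_14d by RPKM. By counts it was -0.092, -1.085 and -1.186, so that the sign in 2D turned, and without MT-ND6 and the overlapping pairs 0.019, -0.914 and -1.061.

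Correlations of deviations from the group means ran from -0.1 to 0.185 between samples with the same replicate number. Between samples with different numbers they ran from -0.135 to 0.081. For 2D and 3D_14d alone, same-number values were 0.185, 0.108 and 0.093, and different-number values -0.135 to 0.04. Whether the numbers pair the samples cannot be decided from so few samples per group. A replicate block gave 12 nuclear genes called higher and 9 mitochondrial lower in 3D_7d vs 2D, 25 and 8 in 3D_14d vs 2D, and 18 nuclear and 1 mitochondrial higher in 3D_14d vs 3D_7d. The replicate block with the length trend removed gave 30 nuclear higher, 2 nuclear lower, 1 mitochondrial higher and 3 mitochondrial lower in 3D_7d vs 2D, with medians of 0.330 and -0.286 and a difference of -0.616. In 3D_14d vs 3D_7d it gave 7 nuclear higher, 5 nuclear lower, 0 mitochondrial higher by edgeR and 4 mitochondrial lower, with medians of 0.096 and -0.239, and MT-CO2 at -0.076 (adjusted p = 0.704).

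Leaving out 1 sample at a time, 3D_7d vs 2D had 5 (without 2D replicate 2, 2D replicate 3 or 3D_7d replicate 3) to 17 (without 3D_14d replicate 1) nuclear genes called higher, 2 to 11 lower, a nuclear median of -0.014 to 0.162, 6 to 10 mitochondrial genes lower, a mitochondrial median of -0.905 to -0.73 and a difference of -1.067 to -0.806. In 3D_14d vs 2D these were 5 to 48, 1 to 2, 0.201 to 0.628, 5 to 9, -0.944 to -0.497 and -1.51 to -0.698, with 0 to 2 mitochondrial genes higher. In 3D_14d vs 3D_7d, 7 to 46 nuclear genes were higher and 1 to 7 lower (median 0.147 to 0.684), 0 to 5 mitochondrial genes were higher and 0 to 2 lower (median -0.166 without 3D_14d replicate 3 to 0.283), and the difference was -0.732 to -0.005. The log2 ratio of summed levels was 0.38 to 0.613 in 2D, -0.529 to -0.425 in 3D_7d and -0.789 to -0.442 in 3D_14d. Intervals from counting were not given, since the spread between samples was larger than the sampling noise.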
